A study of Homo sapiens with 16 samples.

Results

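The genes described here encode 6 membrane proteins that handle manganese, calcium or polyamines inside the cell: ATP2C1, ATP2C2, TMEM165, ATP13A1, ATP13A2 and ATP13A3. They were chosen by symbol, and all 6 were found among the 33121 entries of the count table, 1 entry each. All 6 passed the filter on low counts. Poly-A RNA from 16 libraries was read by paired-end sequencing in HAP1, a near-haploid, adherent human line derived from a chronic myeloid leukaemia line. The libraries form 4 groups of 4: cells carrying SLC30A10_delta, a deletion of the gene for a manganese exporter of the plasma membrane, the SLC30A10+/+ control cells of that experiment, cells that lack a different gene (the second knockout), and cells with that gene intact as the second control set. The labels list 1 cell line identifier for both control sets and a separate identifier for each deletion. They list no treatment, and they do not say how many clones stand for each deletion or whether libraries came from separate cultures, so p-values measure the spread between these libraries, which may be technical.

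Manganese is needed in the Golgi apparatus as a cofactor of many glycosyltransferases and is toxic in excess. ATP2C1 and ATP2C2 are P-type ATPases of the secretory pathway that pump calcium and manganese from the cytosol into the Golgi lumen, and TMEM165 is a Golgi membrane protein, also needed for glycosylation, that is thought to exchange calcium or manganese for protons. The P5 ATPases are another branch of the P-type family. ATP13A1 is the P5A pump of the endoplasmic reticulum, known to remove misinserted transmembrane helices, while ATP13A2 in late endosomes and lysosomes and ATP13A3 in endosomes are P5B pumps that move polyamines. Loss of ATP13A2 causes a hereditary parkinsonism and has been linked to sensitivity to manganese.

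Library totals lay between 16058856 and 16648151 counts. The unit of level is CPM, the number of counts per 1000000 after scaling of the library size, so that 3 counts in a library correspond to 0.181 to 0.187 CPM. SLC30A10 itself was barely expressed, at 3 to 11 counts in the SLC30A10 knockout libraries and 6 to 9 counts in their controls, so its RNA neither shows nor contradicts the deletion and the names of the groups follow the labels. Of 8 genes of blood cells, none exceeded 0.549 CPM in any library, while of 4 genes used as markers of the adherent line VIM had 353 to 660, LIN28B 68.7 to 124, KRT18 33.5 to 53.6 and KRT8 2.48 to 10.5 CPM. VIM is also abundant in blood cells. A gene is said to have risen or fallen where the adjusted p of edgeR's quasi-likelihood test was under 0.05. By that rule 41.4% of 15569 tested genes changed with SLC30A10 deleted and 13.7% in the second knockout, and 39.3% differed between the control sets.

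Promoter sequence is shown for the 3 members whose RNA differed in a comparison below, TMEM165, ATP13A1 and ATP13A2. Each stretch is from RefSeq on GRCh38.p14, read 5′ to 3′ on the gene's own strand, and ends at the annotated start of transcription, or 17 bases earlier for ATP13A1, where GENCODE places its start. Capitals mark the motifs found: the CCAAT box (CCAAT) in TMEM165, an ETS core (CCGGAAGT) in ATP13A1, and a metal response element core (TGCACNC or TGCGCNC) on the reverse strand in ATP13A2. The TMEM165 stretch is chr4:55395707-55395956 on the plus strand and overlaps an exon of SRD5A3-AS1 on the other strand, that of ATP13A1 is chr19:19663694-19663926 on the minus strand, and that of ATP13A2 is chr1:17011929-17012178 on the minus strand.
TMEM165: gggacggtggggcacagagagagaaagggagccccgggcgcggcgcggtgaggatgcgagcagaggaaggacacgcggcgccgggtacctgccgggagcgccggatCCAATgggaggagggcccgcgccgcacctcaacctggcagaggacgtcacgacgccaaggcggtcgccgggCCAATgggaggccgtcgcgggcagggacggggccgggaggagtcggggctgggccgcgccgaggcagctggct
ATP13A1: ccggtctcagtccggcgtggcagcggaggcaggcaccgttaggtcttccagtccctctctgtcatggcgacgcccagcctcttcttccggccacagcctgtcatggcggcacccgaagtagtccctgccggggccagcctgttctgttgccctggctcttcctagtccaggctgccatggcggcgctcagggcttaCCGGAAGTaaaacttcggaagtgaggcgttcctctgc
ATP13A2: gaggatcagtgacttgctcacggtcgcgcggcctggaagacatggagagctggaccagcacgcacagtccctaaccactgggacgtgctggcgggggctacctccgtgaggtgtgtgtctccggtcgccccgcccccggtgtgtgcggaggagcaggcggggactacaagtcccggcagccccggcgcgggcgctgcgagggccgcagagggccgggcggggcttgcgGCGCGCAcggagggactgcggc

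The 250 bases before each start were searched on both strands. Among 35116 such windows of all genes, 11240 held a CCAAT box, 3.42% held the ETS core and 24.8% held the metal response element core. The TMEM165 window held 2 CCAAT boxes and the ATP13A1 window 2 ETS cores, of which the second lies in the 17 bases not shown. Of the other members, ATP2C1 has 3 annotated starts, and the window of its second start held 3 metal response element cores, 2 of them overlapping. The window of ATP13A3, before a RefSeq start that lies inside the annotated gene, held 1 CCAAT box and was AT-rich, with a GC content of 27.6% against 75.2% for TMEM165, 72.8% for ATP13A2 and a median of 58.0% over all windows. None of these windows held CACGTG, the E-box core of lysosomal gene promoters, which 6.34% of all windows held. ATP2C2 was not matched in that table.

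The levels of the genes can be set side by side only per length, here per kilobase of merged GENCODE exons. By that measure ATP13A2 was the highest, with means of 16.7 to 18.5 CPM per kilobase over the 4 groups, followed by ATP2C1 with 16.2 to 17.4. The libraries of ATP13A2 and ATP2C1 overlapped in 3 of the 4 groups, so their order holds beyond the spread only in the second control set. ATP13A1 came next with 11.4 to 13.9 CPM per kilobase and overlapped neither neighbour in the order in any group. ATP13A3 (9.62 to 9.86) and TMEM165 (8.50 to 10.1) lay close together. TMEM165 was above ATP13A3 in the SLC30A10 control set and below it in the second knockout, in each case without overlap, and their libraries overlapped in the other groups. ATP2C2, the paralog known from secretory epithelia, stood at 0.0725 to 0.110 CPM per kilobase, so that HAP1 cells expressed ATP2C1 and almost no ATP2C2.

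**Figure D1:**
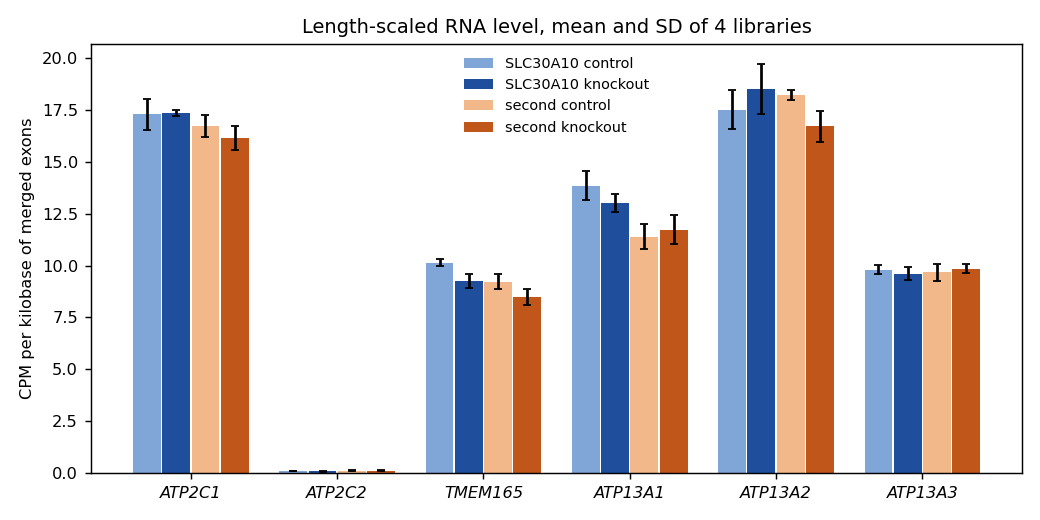
RNA level per kilobase of merged exons for the 6 genes (vertical axis, CPM per kilobase, from 0) in the 4 groups. Bars are means and error bars SDs of 4 libraries. ATP13A2 and ATP2C1 are highest in every group and ATP2C2 is close to 0.

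Of the 6 members, 1 changed in the SLC30A10 knockout, TMEM165, and 0 changed in the second knockout. There 2 members, TMEM165 and ATP13A2, had an unadjusted p under 0.05 by edgeR, and 0 were called by DESeq2. The share of all tested genes with an unadjusted p under 0.05 was not counted, so nothing is read from those 2. The median log2 fold change of the members was -0.01 in both knockouts, against -0.0048 and -0.0024 over all tested genes. Over all tested genes 20.2% fell and 21.2% rose in the SLC30A10 knockout, and 7.03% fell and 6.67% rose in the second. A share of 1 in 6 members is below the 41.4% of all tested genes, and 0 of 6 stands beside 13.7%. The control sets differed in 2 members, TMEM165 and ATP13A1, both higher in the SLC30A10 control set, where 39.3% of all tested genes differed. The largest difference of any member in these comparisons that passed the test was that of ATP13A1 between the control sets.

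ATP2C1, the main Golgi pump for calcium and manganese, is annotated at chr3:130850595-131016712 on the plus strand (GRCh38) and shares exon bases with ASTE1 on the opposite strand. In the SLC30A10 knockout its 4 libraries had 147, 150, 147 and 149 CPM, and in the SLC30A10 control 149, 144, 156 and 141 CPM. The knockout libraries lay inside the range of the controls. The log2 fold change was 0.01 ± 0.04 (SE), with a 95% interval from -0.08 to 0.09, a narrow range around no change. In the second knockout the libraries had 137, 133, 137 and 145 CPM against 146, 146, 136 and 144 CPM in the second control. The ranges overlapped, and the log2 fold change of -0.05 ± 0.04 (SE) did not pass the test (adjusted p = 0.451, edgeR quasi-likelihood).

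TMEM165 (chr4:55395957-55453397, plus strand, sharing exon bases with CLOCK on the opposite strand) was lower in the SLC30A10 knockout than in its control, and lower in the second control set than in the SLC30A10 control set. Its SLC30A10 control libraries had 70.8, 71.0, 73.1 and 71.0 CPM, and its SLC30A10 knockout libraries had 67.1, 62.6, 63.5 and 67.2 CPM. All 4 knockout libraries lay below all 4 controls. In RNA of whole cultures, fewer expressing cells and less RNA per cell cannot be told apart. TMEM165 fell by 0.13 ± 0.05 on the log2 scale (SE), that is, the level fell by 8.93%, and the adjusted p was 0.0181 (edgeR quasi-likelihood test). The groups did not overlap, which held for 38.3% of all tested genes. Without SLC30A10 knockout library 2 or library 3 the call was lost, and the adjusted p ranged from 0.0179 to 0.0619 over the fits that left out a library.

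The second control libraries of TMEM165 had 61.2, 65.8, 65.9 and 67.3 CPM, and those of the second knockout 58.0, 59.2, 58.2 and 63.9 CPM. The second control thus lay at the level of the SLC30A10 knockout, 65.0 ± 2.63 against 65.1 ± 2.39 CPM (SD, n = 4 each). In the second knockout 3 of 4 libraries lay below all its controls, and the log2 fold change of -0.12 ± 0.05 (SE) missed the threshold with an adjusted p of 0.0840. It passed without second control library 1 or second knockout library 4. The adjusted p (edgeR quasi-likelihood) ranged from 0.03815 to 0.2369 over the fits that left out a library. The difference between the knockout effects was -0.01 ± 0.06 on the log2 scale, with a 95% interval from -0.15 to 0.12. Between the control sets TMEM165 differed by 0.14 ± 0.05 (log2, SE, adjusted p = 0.0181). That difference did not pass without second control library 1 (adjusted p = 0.0624) or without a filter on low counts (adjusted p = 0.0569). With both control sets pooled, the SLC30A10 knockout no longer passed, at -0.07 ± 0.05 and an adjusted p of 0.301, and the second knockout did, at -0.19 ± 0.05 and an adjusted p of 0.0108. With controls of the other experiment in the comparison, the experiment and the deletion cannot be told apart.

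**Figure D2:**
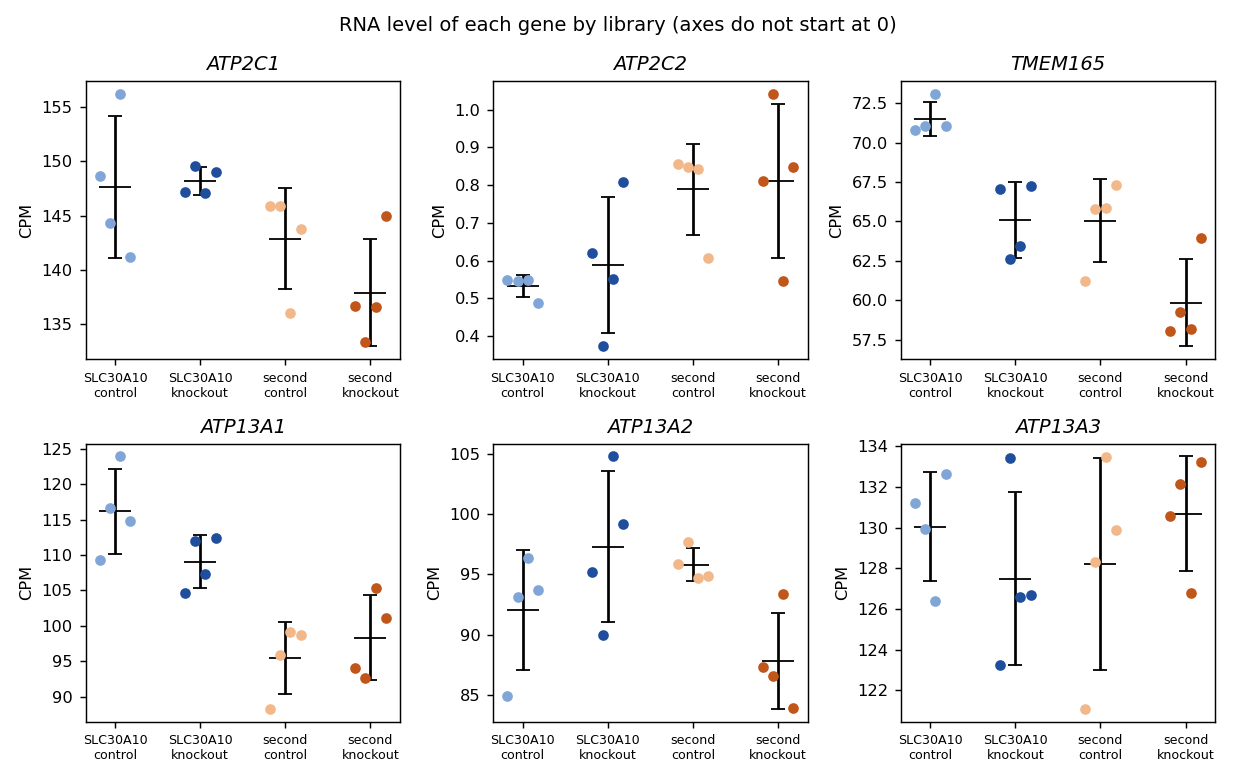
CPM of each gene (vertical axes, which do not start at 0) in every library of the 4 groups. Points are libraries, horizontal marks are means and error bars are SDs of 4 libraries. The 4 SLC30A10 control libraries of TMEM165 lie above all others, and the second control libraries of ATP13A1 lie below all of the SLC30A10 experiment.

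ATP2C2 (chr16:84368527-84464187, plus strand, sharing exon bases with ATP2C2-AS1) had so few reads that only large changes could be seen. The SLC30A10 knockout libraries held 10, 6, 9 and 13 counts and their controls 9, 9, 9 and 8. The second knockout held 13, 17, 9 and 14 counts and its controls 14, 14, 14 and 10. In the SLC30A10 experiment only knockout libraries 1 and 4 reached the minimum count of 10. ATP2C2 thus passed the filter on low counts through libraries of the second experiment, where it was higher. Knockout and control overlapped in both experiments. The ratio of summed counts was 1.10 in the SLC30A10 knockout with a 95% exact interval from 0.680 to 1.80, and 1.03 in the second knockout with an interval from 0.687 to 1.54. Between the control sets the libraries did not overlap, which held for 36.3% of all tested genes. The log2 difference of -0.56 ± 0.28 (SE) did not pass (adjusted p = 0.137, edgeR quasi-likelihood). The intervals of the count ratios cover counting error only.

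ATP13A1, the pump of the endoplasmic reticulum, is annotated at chr19:19645198-19663693 on the minus strand and shares no exon bases with another gene. It had 109, 117, 124 and 115 CPM in the SLC30A10 control and 105, 112, 107 and 112 CPM in the SLC30A10 knockout. It had 88.3, 95.9, 99.2 and 98.7 CPM in the second control and 94.1, 92.7, 105 and 101 CPM in the second knockout. All 4 libraries of the SLC30A10 control lay above all 4 of the second control, while each knockout overlapped its own control. Between the control sets the level was 1.22-fold higher in the SLC30A10 set, a log2 difference of 0.28 ± 0.05 (SE), and the adjusted p was 6.35e-05 by edgeR's quasi-likelihood test. It passed whichever library was left out, with values from 0.25 to 0.32. Groups that do not overlap were seen for 36.3% of all tested genes in that comparison.

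For ATP13A1 the knockout effects were smaller than that gap. The log2 fold change was -0.09 ± 0.05 (SE, adjusted p = 0.140) with SLC30A10 deleted and 0.04 ± 0.05 (adjusted p = 0.644) in the second knockout, by the edgeR quasi-likelihood test. The sign of either value depended on the control set. Set against the control of the other experiment, the SLC30A10 knockout was 0.19 ± 0.05 higher with an adjusted p of 0.00238, and the second knockout had -0.24 ± 0.05 with an adjusted p of 0.000233. In those settings the experiment and the deletion cannot be told apart.

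ATP13A2, the lysosomal polyamine pump, is annotated at chr1:16985958-17011928 on the minus strand and shares exon bases with AL049569.1 on the opposite strand. Its SLC30A10 control libraries had 84.9, 93.1, 96.4 and 93.7 CPM and its SLC30A10 knockout libraries 95.2, 90.0, 105 and 99.2 CPM. The ranges overlapped, with the highest 2 libraries both from the knockout. In the second experiment the control libraries had 95.9, 97.7, 94.7 and 94.9 CPM and the knockout libraries 87.3, 86.6, 93.4 and 84.0 CPM. All 4 knockout libraries lay below all 4 controls there. Groups that do not overlap were seen for 16.3% of all tested genes in that experiment.

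Neither effect on ATP13A2 passed alone. The log2 fold change was 0.08 ± 0.05 (SE, adjusted p = 0.189) with SLC30A10 deleted and -0.13 ± 0.05 (adjusted p = 0.0878) in the second knockout, by edgeR's quasi-likelihood test. The effects differed from each other by 0.21 ± 0.07 on the log2 scale, with an adjusted p of 0.0220, so that ATP13A2 was the 1 member of 6 whose knockout effects differed, where 31.3% of all tested genes did. This call was lost without SLC30A10 knockout library 3 or 4, SLC30A10 control library 1, or library 2 or 4 of the second knockout, with adjusted p from 0.00804 to 0.0705 over the 16 fits. Without library 3 of the second knockout, the highest of its group, the second knockout passed against its control, with an adjusted p of 0.0383.

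ATP13A3 (chr3:194402672-194498364, minus strand, sharing exon bases with LINC00884 and AC108676.1) had group means between 127.5 and 131 CPM. It had 131, 130, 126 and 133 CPM in the SLC30A10 control and 123, 133, 127 and 127 CPM in the SLC30A10 knockout. It had 121, 128, 133 and 130 CPM in the second control and 131, 132, 127 and 133 CPM in the second knockout. All 4 groups overlapped. The log2 fold changes were -0.03 ± 0.04 and 0.03 ± 0.04 (SE), with 95% intervals from -0.11 to 0.05 and from -0.05 to 0.11. The control sets differed by 0.02 ± 0.04.

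**Figure D3:**
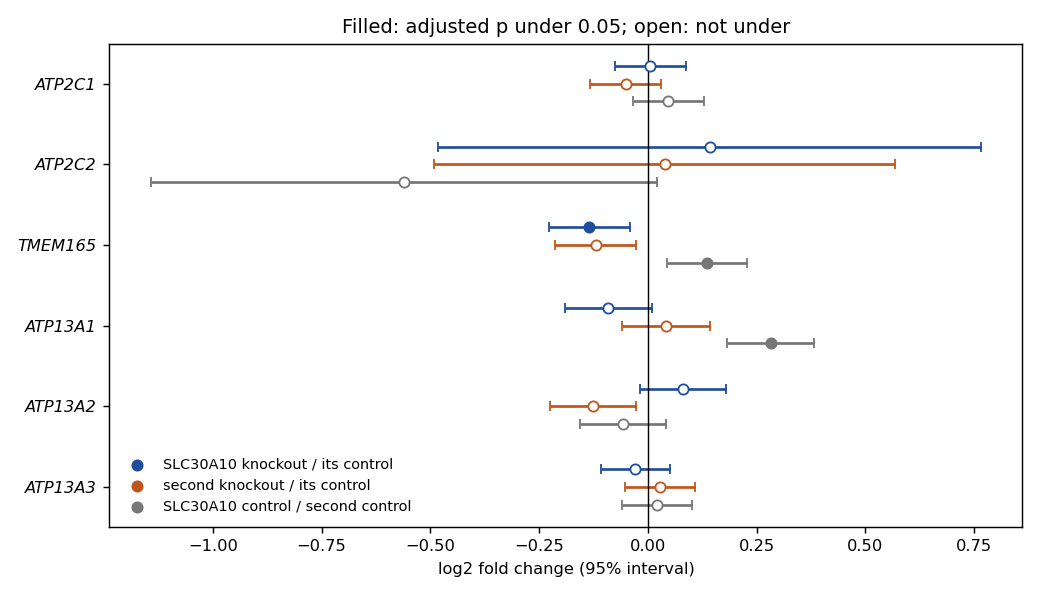
Log2 fold change of each gene (horizontal axis) with its 95% interval in 3 comparisons, filled where the adjusted p was under 0.05. TMEM165 in the SLC30A10 knockout and TMEM165 and ATP13A1 between the control sets are filled, and the intervals of ATP2C2 are the widest.

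**Figure D4:**
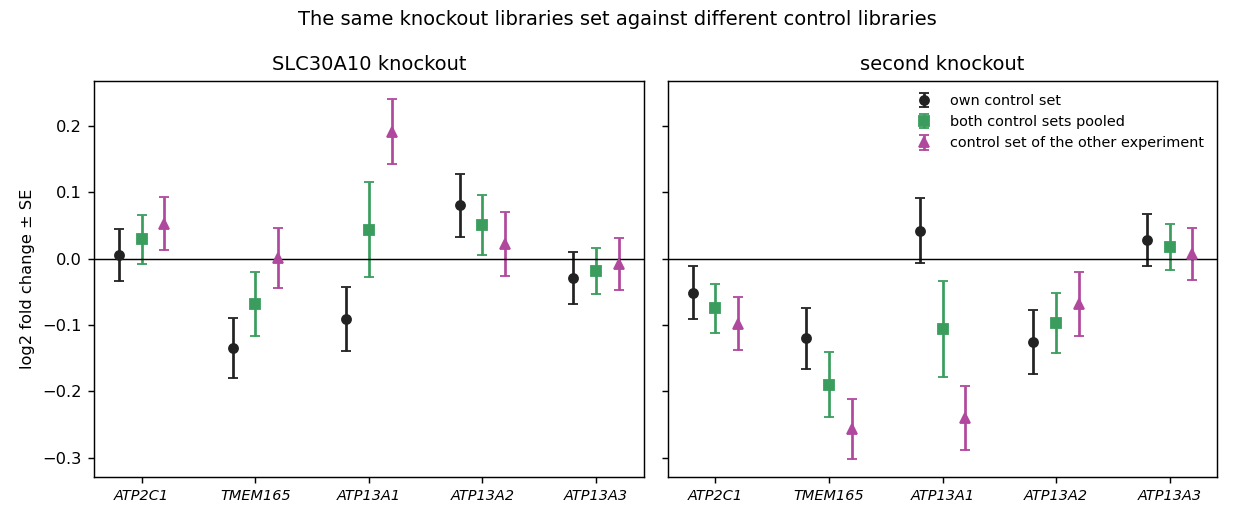
Log2 fold change ± SE (vertical axis) of 5 genes for the same knockout libraries set against their own control set, both sets pooled, or the set of the other experiment. ATP13A1 changes sign in both panels and TMEM165 in the SLC30A10 knockout comes to 0.0011 against the other set, while ATP13A2 and ATP13A3 keep their signs.

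ATP13A4 and ATP13A5 are the other P5B ATPases. They lie beside each other on chromosome 3, the chromosome that also carries ATP13A3, and were nearly silent. ATP13A4 had 0 to 2 counts in the libraries of the SLC30A10 experiment, 0 to 3 in the second control and 2 to 6 in the second knockout, and it did not pass the filter. ATP13A5 had 8, 6, 9 and 6 counts in the SLC30A10 control and 2, 5, 3 and 2 in the SLC30A10 knockout. It had 10, 14, 9 and 15 counts in the second control and 25, 35, 20 and 21 in the second knockout. The groups did not overlap in either experiment, and the directions were opposite. Groups that do not overlap were seen for 38.3% of all tested genes in the SLC30A10 experiment and 16.3% in the second.

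The ratio of summed counts of ATP13A5 was 0.421 in the SLC30A10 knockout, with a 95% exact interval from 0.196 to 0.851, and 2.12 in the second knockout, with an interval from 1.49 to 3.06. By edgeR's quasi-likelihood test the adjusted p was 0.0299 and 0.00311, and the difference between the effects had an adjusted p of 0.000968. ATP13A5 passed the filter on low counts only through the second knockout, where it was high. No library of the SLC30A10 experiment reached the minimum count of 10. The tests thus depend on that group and are given as a description. The fall in the SLC30A10 knockout was lost with the DESeq2 Wald test (adjusted p = 0.0687), with no filter on low counts (adjusted p = 0.0511) and without any of 5 of its 8 libraries, with an adjusted p of up to 0.0824. The rise in the second knockout passed in every setting that gave a value. Nothing is read from this, as ATP13A5 entered the filtered fits through that same group. HRASLS, a phospholipase and acyltransferase gene whose span overlaps that of ATP13A5, and MGC2889 are the nearest tested genes on 1 side of it. They were named after their values were seen and moved the same way, down with SLC30A10 deleted and up in the second knockout: HRASLS fell by 1.33 ± 0.13 and rose by 1.02 ± 0.10 (log2, SE), and MGC2889 fell by 1.00 ± 0.26 and rose by 1.05 ± 0.20. On the other side OPA1, the nearest tested gene, rose by 0.19 ± 0.04 with SLC30A10 deleted. It had -0.07 ± 0.04 in the second knockout, which did not pass. Of the 10 nearest tested neighbours of ATP13A5, 2 rose and 7 fell with SLC30A10 deleted, and 3 rose and 0 fell in the second knockout. Over all tested genes 21.2% rose and 20.2% fell with SLC30A10 deleted, and 6.67% rose and 7.03% fell in the second knockout. ATP13A3, on the same chromosome, did not pass in either knockout.

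The tested genes nearest to each member on its chromosome were then examined. Their counts stand beside the shares of all tested genes. With SLC30A10 deleted 21.2% rose and 20.2% fell, and in the second knockout 6.67% rose and 7.03% fell. Of the 10 tested neighbours of ATP2C2, 5 on each side, 8 fell and 0 rose in the SLC30A10 knockout, with a median log2 fold change of -0.61. TAF1C and TLDC1, its nearest tested neighbours and respectively a subunit of an RNA polymerase I factor and a lysosome-associated protein, fell by 0.76 ± 0.06 and 0.68 ± 0.09. That median lay outside the 95% interval of ATP2C2 itself, from -0.48 to 0.77, which rests on 6 to 13 counts in a library. Against the control set of the other experiment ATP2C2 had -0.42 ± 0.28 (SE). Whether ATP2C2 differs from its neighbours was not tested. In the second knockout 1 of the same 10 rose and 1 fell. Of the 10 neighbours of TMEM165, 2 rose and 5 fell in the SLC30A10 knockout, with a median of -0.21, and CLOCK, the overlapping regulator of circadian rhythm, had -0.10 ± 0.05 and did not pass. SRD5A3, the polyprenol reductase of N-glycosylation on the other side, fell by 0.30 ± 0.08.

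In the SLC30A10 knockout 1 of the 10 neighbours of ATP13A1 rose and 3 fell, and 3 rose and 2 fell around ATP13A2. Around ATP13A3 and around ATP2C1, 3 rose and 5 fell. Next to ATP13A2, 4.38 kilobases away, MFAP2, a gene of extracellular microfibrils, fell by 3.28 ± 0.28 with SLC30A10 deleted and fell by 4.57 ± 0.42 with the second gene deleted (log2, SE). SDHB on the other side, a subunit of respiratory complex II, had 0.09 ± 0.04 and -0.08 ± 0.04 and did not pass in either. ATP13A2 thus lay between a gene nearly lost in both knockouts and another that did not pass in either. The neighbours of ATP13A1 had medians of -0.11 and 0.08 in the knockouts and 0.0073 between the control sets, where 3 of 10 were lower and 0 higher, while ATP13A1 was higher in the SLC30A10 control set. GMIP and ZNF101, the nearest, had control set differences of -0.28 ± 0.08 and 0.15 ± 0.10. PIK3R4 and ASTE1, on either side of ATP2C1, had -0.12 ± 0.05, a fall that passed, and -0.02 ± 0.09 in the SLC30A10 knockout. HES1 and TMEM44-AS1, on either side of ATP13A3, had 0.57 ± 0.13 and -0.47 ± 0.18 there, and both passed.

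**Figure D5:**
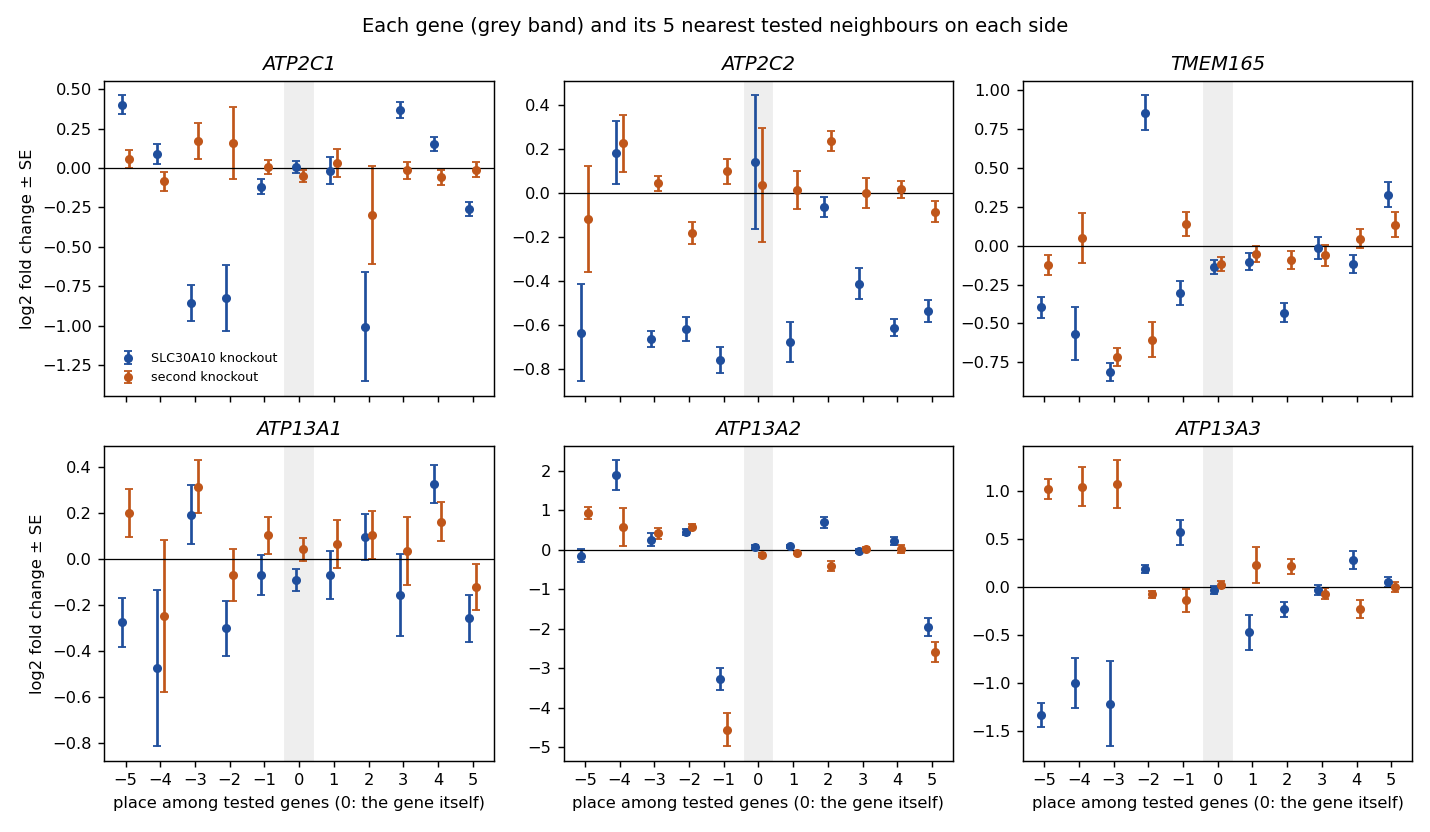
Log2 fold change ± SE (vertical axis) of each gene (grey band) and its 5 nearest tested genes on each side in gene order (horizontal axis), for both knockouts. Neighbours of ATP2C2 lie mostly near -0.61 in the SLC30A10 knockout, and MFAP2 beside ATP13A2 is low in both.

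Genes of the pathways around these pumps were counted from lists, with no test of a list. In the SLC30A10 knockout, 7 of 20 tested genes of Golgi manganese and pH homeostasis changed, 5 higher and 2 lower, with a median log2 fold change of 0.01. SLC9A7, a sodium or potassium exchanger for protons of the Golgi, had the smallest adjusted p of them and rose by 0.67 ± 0.05. Of 23 manganese-dependent Golgi glycosyltransferases, 10 rose and 3 fell, with a median of 0.115, and B4GALT6, which makes lactosylceramide and had the smallest adjusted p of them, rose by 0.51 ± 0.06. GALNT3 and GXYLT2 had larger log2 fold changes from levels under 1 CPM. The list for manganese transport at the plasma membrane and endosomes also holds zinc transporters and TFRC, the transferrin receptor. Of its 10 tested genes 3 rose and 2 fell, and SLC39A14, a manganese importer, rose by 0.64 ± 0.08. Of 18 subunits of the vacuolar proton pump 4 rose and 3 fell, and ATP6V1B2, with the smallest adjusted p, rose by 0.89 ± 0.04. Of 18 genes of polyamine metabolism 7 rose and 3 fell, and SMS, spermine synthase, rose by 0.91 ± 0.05. These shares stand beside 41.4% of all tested genes.

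Several of these named genes lie where their neighbours rose as well. SLC9A7, SMS and UBL4A, a chaperone component of tail-anchored protein targeting that rose by 0.35 ± 0.05, are on the X chromosome, whose 498 tested genes had a median log2 fold change of 0.36. Of their 10 nearest tested neighbours, 9, 9 and 10 rose, with median log2 fold changes of 0.314, 0.385 and 0.415. SLC39A14 and ATP6V1B2 are on chromosome 8, and 10 and 8 of their 10 neighbours rose. The medians of those neighbours were 1.22 and 1.11, above the values of the 2 genes themselves. Over all tested genes 21.2% rose. The neighbours of B4GALT6 on chromosome 18 had a median of -0.03. The remaining lists in the SLC30A10 knockout gave 6 higher and 5 lower of 17 genes of tail-anchored protein insertion, 1 higher and 2 lower of 5 calcium pumps, and 9 higher and 3 lower of 18 other P-type ATPases. Among the latter ATP8A2, a phospholipid flippase, rose by 2.37 ± 0.10 from 6.51 ± 1.01 to 33.8 ± 1.12 CPM (SD, n = 4). Among the calcium pumps ATP2B1, of the plasma membrane, fell by 0.22 ± 0.05. Between the control sets 2 of the 5 calcium pumps were higher and 2 lower in the SLC30A10 set. There 47.1% of the genes of tail-anchored protein insertion and 44.4% of the other P-type ATPases differed.

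In the second knockout the same lists are read beside the 13.7% of all tested genes that changed. Of 18 vacuolar proton pump subunits 1 rose and 3 fell, of 18 polyamine genes 2 rose and 3 fell, and of 23 glycosyltransferases 0 rose and 2 fell. ATP6V1A, the catalytic subunit of the proton pump, fell by 0.16 ± 0.03, SMS by 0.24 ± 0.05, B4GALT5 by 0.32 ± 0.06 and ATP9A by 0.23 ± 0.04 (log2, SE). The falls of ATP6AP2, an accessory protein of the proton pump, by 0.13 ± 0.04, and of the zinc transporter SLC39A6, also by 0.13 ± 0.04, were near the threshold, and each was lost without any of 6 of the 8 libraries and with library totals in place of scaled sizes. ATP6AP2 was the 1 called gene of 20 in the Golgi list, and SLC39A6 the 1 called gene of 10 in the manganese transport list. ATP2A1, a calcium pump of the endoplasmic reticulum, rose by 0.50 ± 0.14, and UBL4A fell by 0.18 ± 0.05; either was lost without any of 2 libraries, with adjusted p of up to 0.0592 and 0.0846. The fall of ATP6V1A did not pass with both control sets pooled, where it had -0.07 ± 0.05, nor did the rise of ATP2A1, with 0.23 ± 0.15.

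The genes most like each member were sought by Pearson's correlation of log2 CPM over the 16 libraries, as a description: the libraries fall into 4 groups, so that any gene with the same order of groups scores high. For ATP13A1 the highest were ANAPC7 (0.945), LOC90784 (0.945) and SIRT7 (0.939), and 65 of 15568 genes exceeded 0.9. For TMEM165 they were ASL (0.934), ZBED5 (0.927) and ZFHX2 (0.924), with 11 genes above 0.9. ATP2C1 was closest to PSMB5 (0.926), ATP6V0B (0.90) and ADSL (0.887). ATP13A2 was closest to SH3BP1 (0.889), ATP2C2 to LYSMD1 (0.827) and ATP13A3 to ASXL2 (0.835), and 0 genes exceeded 0.9 for these 3.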

How the data were processed

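RNA was sequenced by the authors from poly-A selected, fragmented RNA as paired-end reads on a DNA nanoball platform, per the labels' protocols. The submitters' processing notes name HISAT2, featureCounts, DESeq2 and the builds hg38 and GRCh38; versions, annotation and the use of strand are not given in the sources used here, so reads of overlapping genes on opposite strands cannot be told apart. The authors deposited whole-number counts per gene symbol, and a table of normalized signal that, for the members, equals the deposited count times a constant for each library.

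Counts were tested with edgeR 4.0.16 in R 4.3.3: genes passing filterByExpr (minimum count 10, minimum total 15), trimmed mean of M-values, all 16 libraries with a mean for each of 4 groups, quasi-likelihood F tests and Benjamini-Hochberg adjustment over 15569 genes, threshold 0.05. SE is the log2 fold change over the root of F, and 95% intervals use the fit's degrees of freedom. The procedure was tested on simulated data. Positions and exon lengths are from GENCODE 29, and gene order, which placed 91.2% of tested genes, and promoters from RefSeq. Merged exons can exceed the transcript in use, which lowers the level per kilobase. The members, the lists and the naming rule were chosen with earlier results of these data known. Named were the members, the first of up to 3 list genes by adjusted p for each list and knockout, the nearest tested neighbours and the 3 most alike genes or the first of them. Replicate pairs differed by 1.60 to 6.43 in chi-square per degree of freedom, more than sampling noise. Replicate numbers come from the titles, and mean correlations of same-numbered libraries were -0.0318, 0.0471 and 0.0178, so they were not taken as pairs. Alternatives were another scaling, DESeq2 1.42.0, other filters, the replicate block, other control libraries and leaving out each library. The gene deleted in the second knockout is not reported here.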

Additional observations from a re-analysis of the deposited data

Results flagged for a closer look

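Of 28 sets of 4 libraries examined, for the 6 members and ATP13A5, 3 held a library whose gap to the nearest other, as a share of the range, exceeded Dixon's limit for 4 values, where about 1.4 would by chance. These were SLC30A10 control library 3 of TMEM165 (gap share 0.894), the highest of its group at 73.1 CPM, and control library 4 of ATP2C2 in the SLC30A10 set (0.961) and in the second set (0.948), where the gaps are of 1 and 4 counts. All of them stayed in the tests.

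The effect of the SLC30A10 knockout differed from that of the second knockout (difference of log2 fold changes, edgeR quasi-likelihood interaction) for 15 of 21 named genes examined, where it did for 31.3% of all tested genes. The genes from lists were named for the smallest adjusted p in a knockout, which favours such a difference, so nothing is read from that count. Each knockout is a different deletion with its own control set. Of the members this held for ATP13A2, with a difference of 0.21, and of their relatives for ATP13A5, with -2.29. ATP13A5 passed the filter on low counts only through the second knockout, where it was high. Among the other pumps and transporters the differences were 3.08 for ATP8A2, -1.06 for ATP2A1, -0.27 for ATP2B1, 0.49 for SLC39A14, 0.32 for SLC39A6 and 0.70 for SLC9A7. They were 0.91 for ATP6V1B2, 0.17 for ATP6V1A and 0.52 for ATP6AP2 of the proton pump. They were 0.45 for B4GALT6, 0.44 for B4GALT5, 1.15 for SMS and 0.53 for UBL4A.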

How the results depend on the processing

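The calls of members kept their number in each comparison with median-of-ratios factors, library totals, deposited size factors (added after seeing the data), DESeq2 and a mean count of at least 50, and, in the comparisons other than the difference of the knockout effects, for which it was not run, with fits of 8 libraries. With no filter on low counts 1 member differed between the control sets. With both control sets pooled 0 members changed with SLC30A10 deleted and 1 with the second gene deleted. Against the control set of the other experiment, also added later, 3 members and 7445 genes passed in the second knockout, and 1 member, ATP13A1 in place of TMEM165, in the SLC30A10 knockout. The replicate block gave 6497, 2160, 4882 and 6181 genes for the SLC30A10 knockout, the second knockout, their difference and the control sets, and changed no call of a member. Leaving out a library gave 0 to 1 members in either knockout and in their difference, and 1 to 2 between the control sets.

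Signs changed as follows. ATP2C1 in the SLC30A10 knockout had -0.0061 with library totals. With pooled controls the SLC30A10 knockout gave -0.17 for ATP2C2 and 0.044 for ATP13A1, and the second knockout gave -0.11 for ATP13A1. With the other control set the SLC30A10 knockout gave -0.42 for ATP2C2, 0.0011 for TMEM165 and 0.19 for ATP13A1, and the second knockout gave -0.24 for ATP13A1 and 0.026 for ATP6V1A. Leaving out a library moved the SLC30A10 knockout value of ATP2C1 from -0.021 to 0.034 and of ATP2C2 from -0.049 to 0.31. It moved ATP2C2 from -0.10 to 0.19 in the second knockout and from -0.091 to 0.27 in the difference, and TMEM165 from -0.039 to 0.011 in the difference. The cause of these shifts was not tested. Depth limits ATP2C2, ATP13A4 and ATP13A5.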
